A study of Mus musculus with 8 samples.

Results

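The genes described here are 9 transcription factors and cofactors that set chamber and conduction identity in the heart: Irx3, Irx4, Irx5, Hey2, Hopx, Nr2f1, Nr2f2, Tbx3 and Isl1. They were chosen by name, though with earlier results of these data known. They are the rows of the coding gene count table whose Ensembl mouse gene ID carries 1 of these symbols. All 9 were found among its 29844 genes, and all 9 passed the filter on low counts that left 14059 genes for testing. The RNA came from primary heart cells of mouse embryos at stage E18.5, from B6.Cg-Tg(HIST1H2BB/EGFP)1Pa/J mice, whose transgene, a human histone H2B fused to green fluorescent protein, was carried by both groups. The cells were grown for 4 days to a confluent, beating layer on silicone rubber (polydimethylsiloxane). The soft group (about 10 kPa) and the stiff group (about 150 kPa) had 4 libraries each. The library codes in the labels form a separate number series for each substrate. What the series stands for is not stated, so any difference in preparation it marks cannot be told apart from stiffness. The comparison asks whether substrate stiffness alters the expression of these genes. Whether the 4 libraries of a group came from separate cultures is not stated, so p-values measure only how these libraries spread, part of which may be technical.

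Working heart muscle divides into atrial and ventricular chambers, and impulse generation and spread are left to nodes and a conduction system. Each fate is held by transcription factors that activate its own programme and repress the others. Irx4 and Hey2 act in the ventricle, Irx3 in the ventricular conduction system, Irx5 in the gradient of repolarisation across the ventricular wall, Nr2f1 and Nr2f2 (the COUP transcription factors) in the atria, and Tbx3 in the nodes. Isl1 marks progenitors of the second heart field and persists in the sinus node. Hopx is a homeodomain protein that does not bind DNA itself and restrains serum response factor. Several of these genes also act outside heart muscle, for example Nr2f2 in venous endothelium.

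The labels describe digestion of microdissected hearts to a suspension of cells and name no sort of cardiomyocytes and no separation of chambers. Library totals in the coding table lay between 27646471 and 34693673 counts. Levels are CPM, counts brought to a common library total, scaled by TMM, a correction for library composition. They are not divided by transcript length, so they are compared between libraries for the same gene and never between genes. The labelled cell type was present: all 12 cardiomyocyte markers were tested, and they summed to between 20023 and 38453 CPM per soft library and between 20219 and 34362 CPM per stiff library. Markers of other cells were there too, with 9404 to 17740 CPM for 12 fibroblast genes, 692 to 1199 CPM for 9 epicardial genes and 203 to 358 CPM for 12 endothelial genes over the 8 libraries, among which Cldn5 was at 0 throughout. In such mixed samples, fewer cells of a type and less RNA per cell cannot be told apart.

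RefSeq promoter windows (GRCm38.p6, 250 bases before to 50 bases after a start site) were given for 7 of the 9 genes, with alternative starts for Hopx and Nr2f1 making 9 windows. The 250 bases upstream of Hey2, Irx3, Isl1 and Nr2f2 are shown. Among the 7 genes, Irx3 held none of the motifs searched, Isl1 and Nr2f2 were the ends of the range in CpG content, and Hey2 alone held the letters of a TEAD site, the DNA element through which the stiffness-regulated cofactor YAP acts. Capitals mark every match, on either strand, to TATAAA (the box bound by TBP), CCAAT (the box bound by NF-Y), GGGCGG (the GC box of SP and KLF factors), AGGTCA (the element of nuclear receptors such as the COUP factors), GGAATG (TEAD), AGATAA (the element of GATA factors) or CACGTG (an E-box that HEY factors can bind). No 2 matches overlapped in these windows. The stretches lie at chr10:30842784-30843033, chr8:91801655-91801904, chr13:116309689-116309938 and chr7:70366747-70366996, all on the minus strand and outside the span of their gene.
Hey2: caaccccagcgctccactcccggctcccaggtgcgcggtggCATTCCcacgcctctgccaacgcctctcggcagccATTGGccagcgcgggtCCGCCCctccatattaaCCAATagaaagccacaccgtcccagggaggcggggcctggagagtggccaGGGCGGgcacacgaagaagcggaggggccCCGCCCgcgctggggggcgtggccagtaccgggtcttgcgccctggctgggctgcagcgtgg
Irx3: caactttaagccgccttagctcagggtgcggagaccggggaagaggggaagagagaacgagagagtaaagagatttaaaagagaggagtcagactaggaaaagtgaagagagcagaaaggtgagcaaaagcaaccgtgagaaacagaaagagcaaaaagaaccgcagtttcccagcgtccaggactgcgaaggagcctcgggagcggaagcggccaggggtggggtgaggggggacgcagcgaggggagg
Isl1: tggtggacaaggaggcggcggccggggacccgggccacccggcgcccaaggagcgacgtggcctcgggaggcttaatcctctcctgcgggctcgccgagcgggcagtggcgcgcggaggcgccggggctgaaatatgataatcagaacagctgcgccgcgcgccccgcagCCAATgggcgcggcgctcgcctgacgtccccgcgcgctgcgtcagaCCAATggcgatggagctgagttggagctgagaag
Nr2f2: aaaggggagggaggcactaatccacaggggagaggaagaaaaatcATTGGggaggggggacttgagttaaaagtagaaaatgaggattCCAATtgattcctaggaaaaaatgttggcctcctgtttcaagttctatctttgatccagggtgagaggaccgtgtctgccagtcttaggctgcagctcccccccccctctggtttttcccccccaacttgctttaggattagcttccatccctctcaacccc

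The stretch before Irx3 held none of the 7 motifs. That before Hey2 held 3 GC boxes, 2 CCAAT boxes and the TEAD letters, and those before Isl1 and Nr2f2 held 2 CCAAT boxes each and no other match. The window of Irx4, inside the span of its gene and not shown, held 2 GC boxes. Of all 32851 windows of this length in the table, 35.7% held a GC box, 37.4% a CCAAT box and 14.7% the TEAD letters. Among the 9 windows of the set, 3 held a GC box, 5 a CCAAT box and 0 a TATA box, against 13.6% of all windows for the last. The AGGTCA element was in 0 of the 9 (16.3% of all windows), the GATA letters were in Isl1 alone, past the start (11.2%) and CACGTG in 1 of the Hopx windows (7.15%). The Isl1 window had 37 CpG dinucleotides and a ratio of observed to expected CpG of 1.05, higher than 96.5% of all windows. That of Nr2f2 had 2 CpG dinucleotides and a ratio of 0.109, against a median of 0.384 over all windows. These matches describe letters in the windows and say nothing about binding.

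No gene of the set passed the test between stiff and soft. By edgeR's quasi-likelihood test with Benjamini-Hochberg adjustment over 14059 genes, 0 of the 9 were called, and the background is 0% of all tested genes. The lowest unadjusted p in the set was 0.180, and 0 of the 9 were under 0.05, against 0.925% of all genes. For 0 of the 9 did the soft and stiff libraries stay apart, against 1.29% of all genes. Estimates were lower on stiff for 7 and higher for 2, where 51.9% of all tested genes had a lower estimate. The median log2 fold change was -0.29 over the set and -0.01 over all tested genes. The 95% intervals of single genes, not adjusted, reached from 1.40-fold to 12.8-fold to either side of the estimate, so that the data leave room for sizeable changes in most of these genes.

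**Figure D1:**
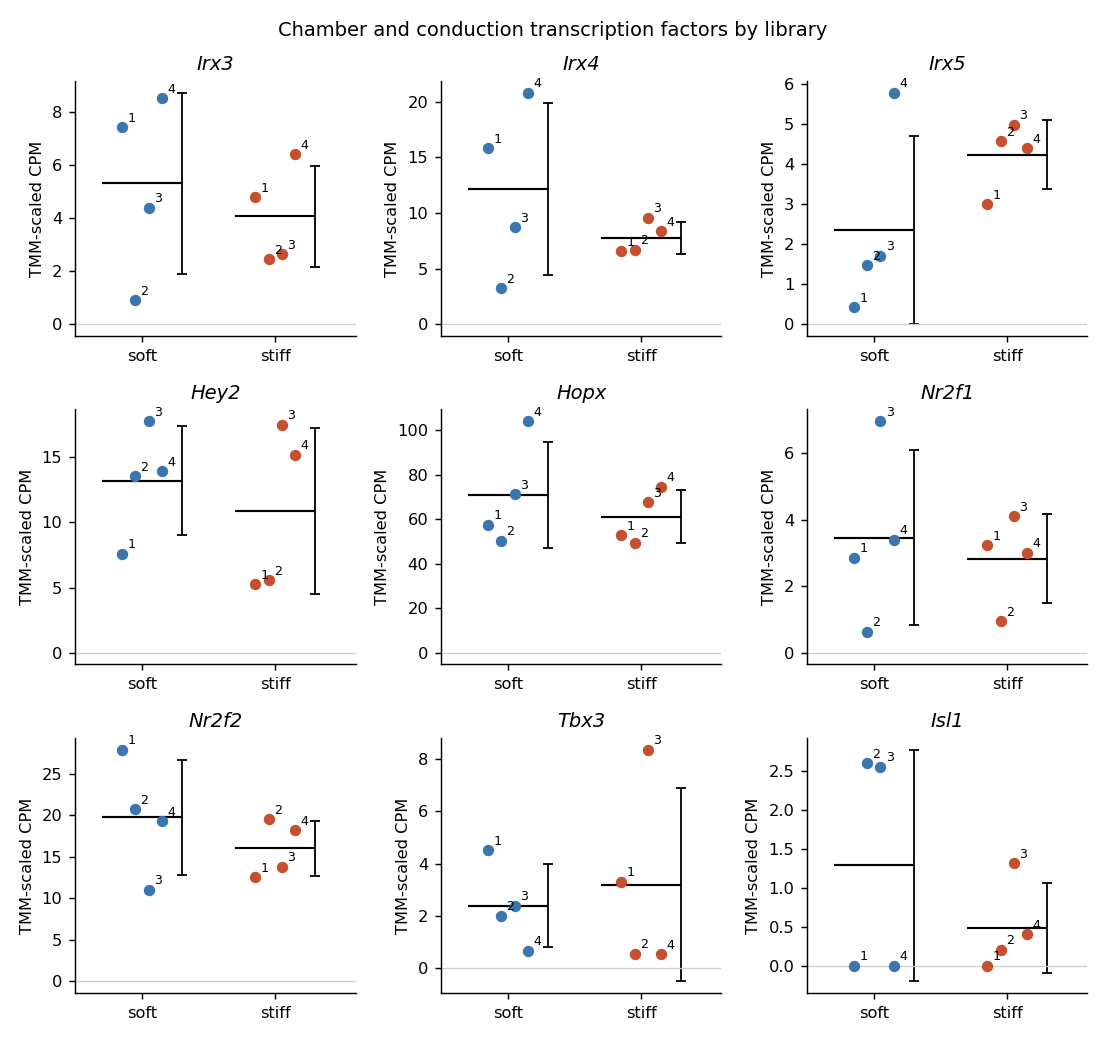
TMM-scaled CPM of each gene (vertical axis, a separate scale for each panel) in the 4 soft and 4 stiff libraries, which are numbered; horizontal lines are means and error bars SD. Soft and stiff points overlap in every panel, and Isl1 lies at 0 in soft 1, soft 4 and stiff 1.

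Irx4, the ventricle-restricted member of the Iroquois homeodomain family (ENSMUSG00000021604, chromosome 13 from 73259589 to 73269622), was read at 15.8, 3.24, 8.75 and 20.8 CPM in soft libraries 1 to 4. On stiff it was read at 6.56, 6.71, 9.57 and 8.38 CPM. The soft libraries thus spanned a wide range that enclosed all 4 stiff libraries. Means were 12.2 ± 7.74 CPM (soft) against 7.80 ± 1.44 CPM (stiff; SD, n = 4). The log2 fold change, stiff over soft, was -0.64 (SE 0.46, 95% interval -1.605 to 0.33, edgeR adjusted p = 0.99997). The estimate went to -0.24 without soft 4 and to -0.95 without soft 2, the library of lowest Irx4, where the edgeR adjusted p was 0.99989.

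Irx3, which shapes the fast conduction of the ventricular conduction system (ENSMUSG00000031734, chromosome 8 from 91798511 to 91801654), had 7.44, 0.915, 4.41 and 8.55 CPM in soft libraries 1 to 4. In stiff libraries 1 to 4 it had 4.79, 2.45, 2.64 and 6.43 CPM. Soft 2 was the lowest library and soft 4 the highest, as for Irx4. The means were 5.33 ± 3.42 and 4.08 ± 1.89 CPM (SD, n = 4 each) and the log2 fold change was -0.39 (SE 0.63, interval -1.72 to 0.95). It was -0.05 without soft 4 and -0.73 without soft 2.

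Irx5, the neighbour of Irx3 in the same Iroquois cluster and a repressor of the potassium channel gene Kcnd2 in the ventricular wall (ENSMUSG00000031737, chromosome 8 from 92357796 to 92361456), had the largest positive estimate of the set. Its values in soft libraries 1 to 4 were 0.428, 1.48, 1.71 and 5.77 CPM. Those in stiff libraries 1 to 4 were 2.996, 4.56, 4.98 and 4.38 CPM. Soft libraries 1 to 3 all lay below every stiff library, and soft 4 lay above them all. The means were 2.35 ± 2.35 and 4.23 ± 0.86 CPM (SD, n = 4 each), with a log2 change of 0.85 (SE 0.74, interval -0.72 to 2.41). Leaving out soft 4 moved the estimate to 1.82, with an edgeR adjusted p of 0.99986, and leaving out soft 1 moved it to 0.50. The read counts behind these values ran from 13 to 175.

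Paralogues in the other Iroquois cluster, which holds Irx1, Irx2 and Irx4 on chromosome 13, had negative estimates as well. Irx2 was read at 2.90, 7.63, 2.88 and 4.39 CPM in soft libraries 1 to 4 and at 2.19, 1.19, 0 and 2.39 CPM in stiff libraries 1 to 4. Its soft and stiff libraries did not overlap, which was so for 1.29% of all tested genes, and its log2 fold change was -1.62 (SE 0.98, edgeR adjusted p = 0.99997). Irx1 stood at 1.51 ± 0.87 CPM (soft) against 0.22 ± 0.23 CPM (stiff; SD, n = 4), with a log2 change of -2.76 (SE 1.45, edgeR adjusted p = 0.99997). In stiff 3 both genes had 0 reads, and a count of 0 there allows up to 0.0900 CPM (3 counts, counting error only). Irx6, the third gene of the cluster with Irx3 and Irx5, had 6 reads in stiff 1 and 0 elsewhere and was not tested.

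**Figure D2:**
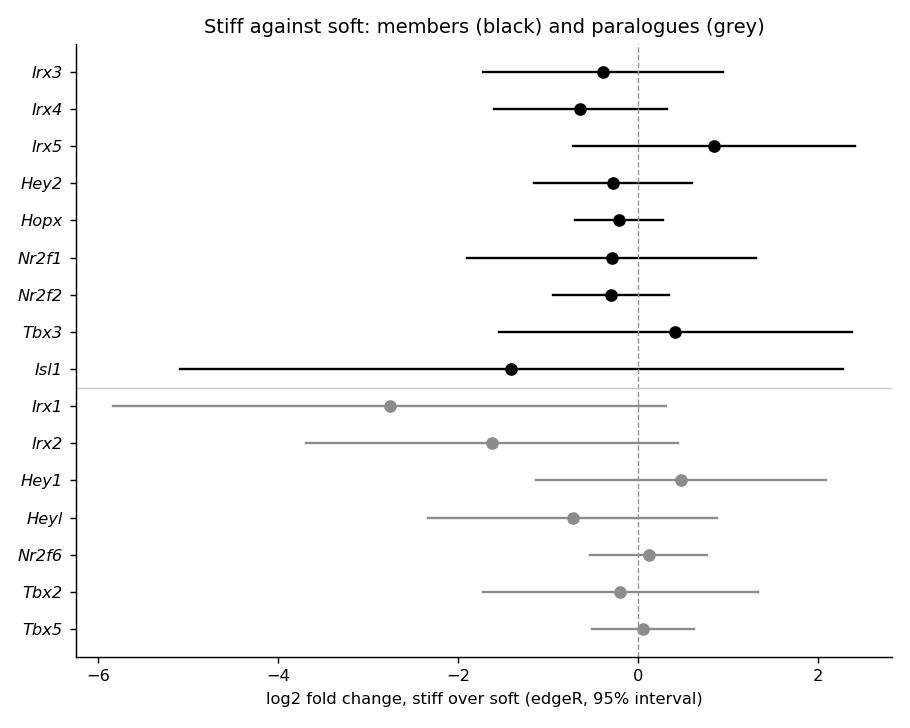
Log2 fold change, stiff over soft, from edgeR (horizontal axis) for the 9 genes (black) and 7 tested paralogues (grey). Lines are unadjusted 95% intervals derived from the F statistic of the edgeR test. All 16 intervals cross 0, from the narrowest, Hopx at -0.70 to 0.28, to the widest, Isl1 at -5.09 to 2.28.

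Hey2, a basic helix-loop-helix repressor of the compact ventricular wall that keeps atrial genes off (ENSMUSG00000019789, chromosome 10 from 30832359 to 30842783), had 7.60, 13.5, 17.7 and 13.9 CPM in soft libraries 1 to 4. On stiff it had 5.25, 5.58, 17.5 and 15.2 CPM, so that stiff 1 and 2 lay below every soft library while stiff 3 and 4 lay among the highest of the soft. The means were 13.2 ± 4.19 and 10.9 ± 6.37 CPM (SD, n = 4 each). The log2 fold change was -0.28 (SE 0.42, interval -1.16 to 0.60). It was -0.60 without stiff 3 and -0.05 without stiff 1. Of its paralogues, which like Hey2 are targets of Notch signalling, Hey1 had a log2 change of 0.48 (SE 0.76) and Heyl one of -0.72 (SE 0.76), which went to -1.65 without stiff 4 and to -0.42 without soft 4.

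Hopx (ENSMUSG00000059325, chromosome 5 from 77086986 to 77115123) rested on the most reads of the set, 2010 per library on average, and had the narrowest interval. The soft libraries 1 to 4 held 57.5, 50.4, 71.2 and 104 CPM. The stiff libraries 1 to 4 held 52.8, 49.5, 67.5 and 74.5 CPM. Soft 4 stood above the rest, and the other soft libraries fell within or near the stiff range. The means were 70.8 ± 23.8 and 61.1 ± 11.9 CPM (SD, n = 4 each), and the log2 fold change was -0.21 (SE 0.23), with an interval equal to 0.61-fold to 1.21-fold of the soft level. Without soft 4 it was 0.04.

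Nr2f2, the atrial and venous COUP factor (ENSMUSG00000030551, chromosome 7 from 70351946 to 70366746), was read at 27.9, 20.7, 11.03 and 19.3 CPM in soft libraries 1 to 4. The stiff libraries 1 to 4 gave 12.5, 19.5, 13.8 and 18.2 CPM, all inside the soft range. The means were 19.7 ± 6.91 and 16.0 ± 3.34 CPM (SD, n = 4 each) and the log2 fold change was -0.30 (SE 0.31, interval -0.95 to 0.34). Without soft 1, the highest library, it was -0.09. Venous and lymphatic endothelial markers summed to 276 to 339 CPM on soft and 279 to 307 CPM on stiff. Nr2f2 and the score of this list had Pearson's r = 0.390 (exact permutation p = 0.335, adjusted p = 0.660), and 0.811 without soft 4 and stiff 4. With the endothelial list r was 0.203 (exact permutation p = 0.632, adjusted p = 0.815), and 0.896 without stiff 1 and stiff 4. The part of endothelial cells in the Nr2f2 level was not tested.

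Nr2f1, the other atrial COUP factor (ENSMUSG00000069171, chromosome 13 from 78188971 to 78198873), had 2.86, 0.633, 6.97 and 3.40 CPM in soft libraries 1 to 4. In stiff libraries 1 to 4 it had 3.24, 0.953, 4.11 and 3.01 CPM. Library 2 was the lowest and library 3 the highest on each substrate; the numbers follow the order of the samples, and the labels do not say that equal numbers share a source. The means were 3.47 ± 2.63 and 2.83 ± 1.34 CPM (SD, n = 4 each), with a log2 change of -0.29 (SE 0.76), which went to 0.30 without soft 3. The more distant family member Nr2f6, which is expressed widely, stood at 22.1 ± 7.12 and 24.0 ± 10.2 CPM.

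Tbx3, the T-box repressor that holds nodal tissue apart from the working chambers (ENSMUSG00000018604, chromosome 5 from 119670534 to 119684724), was among the least even. Its soft libraries 1 to 4 held 4.51, 2.01, 2.38 and 0.660 CPM. In stiff libraries 1 to 4 the values were 3.31, 0.545, 8.37 and 0.526 CPM, so that stiff 3 was the highest library of all and stiff 2 and 4 the lowest. The means were 2.39 ± 1.595 and 3.19 ± 3.69 CPM (SD, n = 4 each). The log2 fold change was 0.42 (SE 0.93) and turned to -0.71 without stiff 3. Relative to their level its paralogues varied less: Tbx2 stood at 3.001 ± 1.96 and 2.62 ± 0.69 CPM, and Tbx5, which lies next to Tbx3 and drives chamber genes, at 23.2 ± 4.67 and 24.1 ± 7.07 CPM.

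Isl1, the LIM-homeodomain factor of progenitors and the sinus node (ENSMUSG00000042258, chromosome 13 from 116298270 to 116309688), was seen in some libraries and not in others. It had 0, 74, 72 and 0 reads in soft libraries 1 to 4 and 0, 6, 44 and 14 reads in stiff libraries 1 to 4. As levels, soft 2 and 3 stood at 2.60 and 2.56 CPM, and stiff 2, 3 and 4 at 0.204, 1.32 and 0.409 CPM. The 0 counts in soft 1, soft 4 and stiff 1 allow up to 0.0988, 0.0990 and 0.106 CPM (3 counts, counting error only). The log2 fold change was -1.41 (SE 1.74, interval -5.09 to 2.28). With 1 library left out it ran from -2.62 (without stiff 3) to -0.79 (without soft 2). Isl1 is also expressed in cardiac neurons, and of 12 markers of neurons and neural crest 6 passed the filter. The list summed to 8.83 to 64.7 CPM on soft and 14.6 to 46.6 CPM on stiff. Its sum was highest in soft 4, where Isl1 had 0 reads. It was lowest in soft 2, where Isl1 had 74 reads. Soft 1 and stiff 1, also at 0 reads, had sums of 20.9 and 14.6 CPM. Isl1 and the score of this list had Pearson's r = -0.620 (exact permutation, adjusted p = 0.437) and Spearman's rho = -0.586. Without soft 2 and stiff 3 the r was -0.0835. The part of such cells in the Isl1 level was not tested.

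Ratios inside a library depend little on its scaling, and 6 were compared between substrates. The log2 ratio of Irx4 to Nr2f2, ventricular over atrial, was -0.88 ± 1.15 on soft and -0.98 ± 0.40 on stiff (SD, n = 4 each, two-sided exact permutation p = 0.886). Hey2 to Nr2f2 gave -0.55 ± 1.01 and -0.70 ± 0.92 (exact permutation p = 0.857). For the neighbours Irx5 and Irx3 it was -1.07 ± 1.51 on soft and 0.12 ± 0.78 on stiff (exact permutation p = 0.171). This was the largest difference of the 6, at 1.19, and the soft libraries ran from -3.10 to 0.48 and the stiff from -0.60 to 0.80, so that the groups overlapped. Soft 1, where Irx5 had 13 reads, weighed most on it: the difference was 0.52 without soft 1, when that of Hey2 to Hey1 was larger at -0.80, and 1.71 without soft 2. Nr2f1 to Nr2f2 (p = 0.886) and Hey2 to Hey1 (p = 0.371) did not pass the exact permutation test either. The ratio of the ventricular to the atrial regulatory light chain genes, Myl2 to Myl7, was steadier, with 1.68 ± 0.16 and 1.80 ± 0.18 (exact permutation p = 0.457). Adjusted over the 6 ratios, every p was 0.886, and the smallest p that 4 against 4 libraries can give is 0.0286.

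Spread between libraries differed widely within the set. The coefficient of variation over the 8 libraries was 27.6% for Hopx, 30.3% for Nr2f2, 42.7% for Hey2, 56.3% for Irx3, 56.6% for Irx4, 58.5% for Irx5, 62.2% for Nr2f1, 95.7% for Tbx3 and 128% for Isl1. Counting error alone, at the mean read number, would give 2.23% for Hopx, 5.73% for Irx4, 10.8% for Tbx3 and 19.5% for Isl1. The spread also stood above the median of genes of like CPM (within 1.25-fold) for 9 of the 9. It was close to that median for Nr2f2 (median 28.2%), Irx5 (56.7%) and Nr2f1 (58.1%). Tbx3 varied more than 94.3% of the 557 genes of its level, Irx4 more than 92.3% of 1110 and Isl1 more than 88.5% of 495, and Irx5 was nearest the middle, at 52.7% of 569. No molecular identifiers are named, so these are reads and not molecules.

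**Figure D3:**
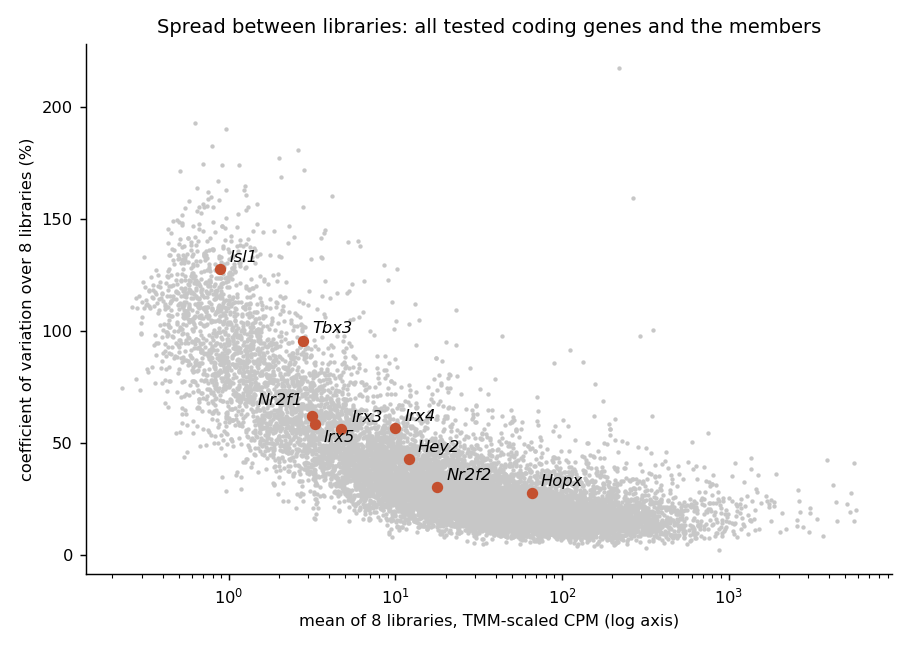
Coefficient of variation over the 8 libraries in percent against the mean TMM-scaled CPM (log axis) for 14059 tested coding genes (grey) and the 9 genes (red). The spread falls as the level rises, from 128% at Isl1 to 27.6% at Hopx, and at their own level the red points lie from near the middle of the grey cloud (Irx5) to its upper edge (Tbx3).

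Each gene was also set against marker lists of 8 cell types over the 8 libraries, 72 relations in all, on log2(CPM + 0.5). For 10 the unadjusted exact permutation p of Pearson's r was under 0.05, and 1 passed after Benjamini-Hochberg adjustment. These p-values take the 8 libraries as independent, and would be too small if libraries of equal number shared a source. Hopx tracked the epicardial list, 9 genes of the outer heart lining such as Msln and Upk3b, with Pearson's r = 0.961 (exact permutation p = 0.000620, adjusted p = 0.0446) and Spearman's rho = 0.952 (exact permutation p = 0.00114, adjusted p = 0.0821). Without soft 2 and soft 4, the libraries farthest from the median of the list, r was 0.903, and with the substrate means removed it was 0.967. With 1 library left out r stayed between 0.917 and 0.976, but the adjusted p passed 0.05 without soft 1 (0.107), soft 2 (0.114), soft 4 (0.239), stiff 1 (0.0714), stiff 2 (0.0571) or stiff 4 (0.171). Hopx also had an r of 0.862 with the fibroblast list (exact permutation p = 0.00702, adjusted p = 0.198; rho = 0.786, p = 0.0279), and 286 of 13229 genes had an r above 0.9 with it. The part of epicardial cells or of library quality in these relations was not tested.

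The other relations did not pass the adjustment. Nr2f1 had r = 0.738 with the fibroblast list (exact permutation p = 0.0224, adjusted p = 0.198; rho = 0.738, p = 0.0458), and r was 0.842 without soft 2 and stiff 1, the 2 libraries farthest from the median. It alone passed when stiff 1 was left out of all relations. Hey2 had r = -0.819 with the endothelial list (exact permutation p = 0.0130, adjusted p = 0.198; rho = -0.786, p = 0.0279), and -0.707 without stiff 1 and stiff 4. Irx4 had r = 0.817 with the epicardial list (exact permutation p = 0.0148, adjusted p = 0.198; rho = 0.762, p = 0.0368), which dropped to 0.446 without soft 2 and soft 4 and thus rested on those libraries. Hey2 had r = 0.770 with the fibroblast list (exact permutation p = 0.0437, adjusted p = 0.315; rho = 0.857, p = 0.0107), and 0.973 without soft 2 and stiff 1. Hopx and the cardiomyocyte list had r = 0.776 (exact permutation p = 0.0214, adjusted p = 0.198; rho = 0.548, p = 0.171), and -0.08 without soft 4 and stiff 4. The last 3 of the 10 were Hopx with venous and lymphatic markers (r = -0.785; rho = -0.810; r = -0.656 without soft 4 and stiff 4), Irx3 with neuronal markers (r = 0.777; rho = 0.595; r = 0.179 without soft 2 and stiff 3) and Tbx3 with leukocyte markers (r = -0.712; rho = -0.524; r = -0.113 without stiff 2 and stiff 3), each with an adjusted exact permutation p of 0.198 for r.

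Among the 36 pairs within the set, a family chosen after the values were seen, 2 had an unadjusted exact permutation p of Pearson's r under 0.05. After adjustment 0 passed. By rank, the pair of lowest p was Nr2f1 and Nr2f2, with Spearman's rho = -0.810 (exact permutation p = 0.0218, adjusted p = 0.427). Their Pearson's r was -0.571 (exact permutation p = 0.139, adjusted p = 0.502), and -0.716 without soft 2 and stiff 2. Irx3 and Irx4 gave Pearson's r = 0.854 (exact permutation p = 0.00675, adjusted p = 0.243) and Spearman's rho = 0.714 (exact permutation p = 0.0576, adjusted p = 0.427). Without soft 2 and soft 4 the r was 0.534, so that much of the relation rested on the lowest and the highest library. Irx3 and its cluster neighbour Irx5 had r = 0.035 (exact permutation p = 0.928, adjusted p = 0.983; rho = 0.143, p = 0.752). Irx4 and Hopx gave r = 0.719 (exact permutation p = 0.0488, adjusted p = 0.502; rho = 0.690, p = 0.0694) and 0.224 without soft 2 and soft 4.

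**Figure D4:**
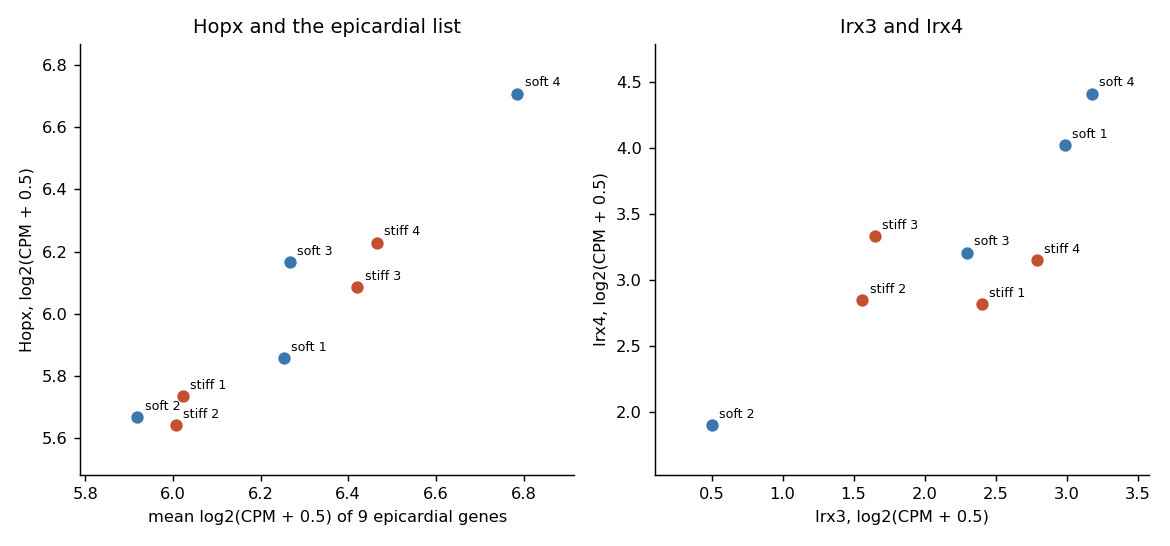
Left, Hopx against the mean of 9 epicardial genes, and right, Irx4 against Irx3, all as log2(CPM + 0.5), with soft libraries in blue and stiff in red. In the left plot the 8 libraries lie near 1 line (r = 0.961), and in the right plot soft 2 and soft 4 stand at the ends (r = 0.854, and 0.534 without them).

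The genes of most like pattern, by Pearson's r of log2(CPM + 0.5) over the 8 libraries and among genes with a mean of at least 1 CPM, were picked from 13229 or 13230 candidates and are given without a test. They were Armc6 (0.973) and Atp5g1 (0.957) for Irx4, Iba57 (0.967) and Sap30l (0.959) for Irx3, and Nlrp10 (0.967) and Adgrd1 (0.965) for Irx5. For Hey2 they were Rad54l (0.959) and Brd2 (0.945), and for Hopx Tomm40 (0.992) and Calm3 (0.986). Nr2f2 had the fewest close companions, with 4 genes above 0.9, led by Prdx1 (0.924) and Mpc2 (0.917). Nr2f1 was closest to Zc3h7b (0.932) and Ccar2 (0.929), Tbx3 to 6030443J06Rik (0.966) and Ankrd16 (0.964), and Isl1 to Cdc40 (0.949) and Ptprj (0.946).

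Chamber, nodal, conduction, progenitor and core cardiac programmes were read from lists of named genes. Whether the 9 factors act on the listed genes was not tested. In each of the 6 lists, 0 genes were called by edgeR with Benjamini-Hochberg adjustment, and 0 had an unadjusted p under 0.05. Of 9 tested ventricular genes 1 had a higher and 8 a lower estimate on stiff, with a median log2 fold change of -0.04 against -0.01 for all tested genes. Myl2, the ventricular light chain gene, stood at 1762 ± 556 CPM (soft) against 1722 ± 158 CPM (stiff), and Myh7, the slow myosin heavy chain gene, at 1283 ± 370 and 1456 ± 705 CPM (SD, n = 4 each). Mpped2, a metallophosphoesterase gene, had a log2 change of -0.52 (SE 0.42) and the light chain gene Myl3 one of -0.30 (SE 0.29). Of 13 atrial genes 4 were higher and 9 lower, with a median of -0.06. The atrial channel subunit gene Kcnj5 had 32.3 ± 11.9 CPM (soft) against 39.9 ± 2.89 CPM (stiff), and the atrial light chain gene Myl7 547 ± 154 and 494 ± 57.0 CPM. Nppa, which encodes atrial natriuretic peptide, had a log2 change of 0.11 (SE 0.21), and Pam, an enzyme of peptide amidation, one of 0.10 (SE 0.18).

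Of 14 tested genes of the nodes 3 had a higher and 11 a lower estimate on stiff, with a median of -0.17. Over all tested genes 51.9% had a lower estimate and the median was -0.01. The genes of a list were read in the same 8 libraries, so their signs are not independent. Tbx18, a factor of the sinus node head, stood at 152 ± 29.1 CPM (soft) against 146 ± 23.7 CPM (stiff). The nodal connexin gene Gjc1 stood at 74.8 ± 3.34 and 72.0 ± 8.98 CPM (SD, n = 4 each). Which cells of these mixed samples gave the reads of this list was not tested. The matrix protein gene Smoc2 had a log2 change of -0.42 (SE 0.24) and the calcium channel gene Cacna1d one of -1.17 (SE 0.81). For 9 genes of the ventricular conduction system the counts were 3 higher and 6 lower (median -0.11). The inhibitor gene Id2 had 67.3 ± 17.2 and 62.5 ± 23.5 CPM (soft and stiff; SD, n = 4), and the potassium channel subunit gene Kcne1 25.3 ± 7.93 and 19.5 ± 8.58 CPM. In the same list, Nkx2-5, a core factor of heart muscle, stood at 8.47 ± 4.82 and 5.98 ± 0.93 CPM.

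The progenitor list had 3 higher and 5 lower estimates among 8 tested genes (median -0.05), and Fgf8, Fgf10, Six2 and Tbx1 did not pass the filter. Mef2c, also a muscle factor, had a log2 change of -0.02 (SE 0.18), and the Notch target Hes1 one of -0.08 (SE 0.22). Wnt11, a noncanonical Wnt ligand of the outflow tract, had 12.5 ± 3.37 CPM (soft) against 7.90 ± 0.90 CPM (stiff) without overlap (log2 fold change -0.66, SE 0.33, edgeR adjusted p = 0.99997). Foxc2, a forkhead factor, had a log2 change of -0.59 (SE 0.36). Of 14 core cardiac factors 6 were higher and 8 lower (median -0.02). Here Hand2, a helix-loop-helix factor of the right ventricle and outflow tract, did not overlap either (as for 1.29% of all tested genes), at 15.8 ± 2.44 and 10.8 ± 1.64 CPM (log2 fold change -0.54, SE 0.29, edgeR adjusted p = 0.99997). Tbx20 stood at 685 ± 164 and 847 ± 316 CPM, Mef2a at 309 ± 53.6 and 315 ± 18.3 CPM and Gata6 at 126 ± 11.9 and 107 ± 27.8 CPM.

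Marker lists of other cells gave 0 calls as well, and 1 gene with an unadjusted p under 0.05, Notch3 in the mural list (edgeR adjusted p = 0.99997). Estimates were higher and lower on stiff for 5 and 7 of 12 cardiomyocyte genes, 5 and 7 of 12 fibroblast genes, 8 and 3 of 11 endothelial genes, 2 and 5 of 7 venous and lymphatic genes, 3 and 6 of 9 epicardial genes, 1 and 10 of 11 mural genes, 2 and 4 of 6 neuronal genes and 4 and 6 of 10 leukocyte genes. Soft 4, the highest library for Irx3, Irx4, Irx5 and Hopx, also had the highest sum of cardiomyocyte markers (38453 CPM), fibroblast markers (17740 CPM), epicardial markers (1199 CPM) and neuronal markers (64.7 CPM). Estimates without soft 4 are given with each of these genes.

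Some counts may include reads of noncoding neighbours, since strand handling is not given in the sources used here. RefSeq spans on GRCm38.p6 overlap those of a noncoding gene for Hey2, Hopx, Nr2f1, Nr2f2 and Tbx3. Of these neighbours, B130024G19Rik, which overlaps Nr2f2 (chromosome 7 from 70365383 to 70411146), was in the coding table. It had 5.999 ± 2.51 CPM (soft) against 2.76 ± 1.28 CPM (stiff), with a log2 change of -1.12 (SE 0.58, edgeR adjusted p = 0.99997). Near Irx5, the noncoding gene Crnde (chromosome 8 from 92326031 to 92356120) had 6.64 ± 2.34 and 7.55 ± 2.81 CPM, and Irx3os, beside Irx3, had 1.18 ± 1.16 and 1.02 ± 1.22 CPM.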

How the data were processed

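RNA sequencing counts of 8 libraries were used, 4 per substrate, grouped by the substrate label. The authors deposited raw read counts per coding gene; per the submitters' processing notes, the tools included FastQC 0.11.2, Bowtie2, TopHat2 2.0.14, HTSeq 0.6.1, Cufflinks, DESeq2 and edgeR on GRCm38, without roles. Of 29844 IDs, 29150 matched a symbol. The noncoding table was not used here.

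In R 4.3.3, genes were filtered by filterByExpr (minimum count 10, total 15), scaled by TMM and tested by the robust quasi-likelihood test of edgeR 4.0.16, calling genes at an adjusted p below 0.05. Fold changes carry edgeR's default prior count. The SE was derived as the absolute log2 fold change over the square root of the test's F statistic. Intervals were built from that SE with the t distribution and are not given by edgeR itself. Ratios and correlations, on log2(CPM + 0.5), were tested in Python 3.11.15 by exact permutation; a list score was the mean over its tested genes. Named genes were the 9, their paralogues and neighbours, per list 2 by level and 2 by smallest p, and 2 of most like pattern. The genes and lists were chosen with earlier results of these data known. Alternatives included DESeq2 1.42.0 and limma-voom (limma 3.58.1). The pipeline was tested on simulated data. Limits for a count of 0 cover counting error only. Transcript lengths were not used here. Some items are not reported here.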

Additional observations from a re-analysis of the deposited data

How the results depend on the processing

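Calls were 0 under the other scalings, filters, DESeq2, limma-voom, each library left out and the replicate block; limma-voom with the replicate block, which was chosen after seeing the data, called 8 of 14059 genes, 0 of them in the set. Unadjusted p-values under 0.05 numbered 130 in the unpaired edgeR fit, 177 with DESeq2, 181 with limma-voom, 360 with the replicate block and 473 without a filter. Of the 9 genes, 1 was under 0.05 without soft 2 (Irx4, edgeR unadjusted p = 0.0212), where 257 of 14059 genes were. Without soft 4, 1 was (Irx5, edgeR unadjusted p = 0.0416), where 202 of 14059 genes were. In the other settings 0 of the 9 were. The labels do not pair libraries of equal number. Over 14059 genes, deviations from the substrate mean correlated between soft and stiff libraries of equal number in 4 of 4 pairs (r = 0.159 to 0.364), and 6 of 8 libraries were closest to their own number, a hint from the data and not the design. At 1 CPM in 4 libraries 8 of the 9 genes were tested. Irx3, Irx4, Irx5, Hey2 and Nr2f2 kept their sign in all alternatives. With limma-voom the log2 fold change turned to -0.20 for Tbx3, 0.24 for Isl1 and 0.021 for Tbx2, and with the replicate block Tbx3 was at -0.22, Isl1 at -0.52, Irx5 at 1.39, Irx4 at -0.37, Irx3 at -0.14 and Nr2f1 at -0.05. Irx2 was at -2.95 with limma-voom and at -2.24 with the replicate block. With 1 library left out the log2 fold change ran from -0.34 to 0.041 for Hopx and -0.63 to 0.30 for Nr2f1. For Tbx3 it ran from -0.71 to 0.92 and for Isl1 from -2.62 to -0.79. Among paralogues it ran from -1.98 (without stiff 4) to -1.21 (without stiff 3) for Irx2 and from -3.64 to -2.35 for Irx1. It ran from -1.65 to -0.42 for Heyl, -0.42 to 0.81 for Hey1 and -0.22 to 0.38 for Nr2f6. Tbx2 ran from -0.42 to 0.30 and Tbx5 from -0.15 to 0.20. The difference of log2 ratios ran from -0.57 to 0.25 for Hey2 to Nr2f2, -0.65 to 0.22 for Irx4 to Nr2f2, -0.39 to 0.81 for Nr2f1 to Nr2f2 and 0.52 to 1.71 for Irx5 to Irx3. The count of marker relations past adjustment was 1 with a prior of 2 CPM and with library totals, and ran from 0 to 1 with 1 library left out; these were added after the data were seen. The cause of these shifts was not tested. Among the 9 genes depth limits Isl1 most, at 26.3 reads per library.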
